A study of Mus musculus with 20 samples.

Results

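Triglyceride is built in the liver and in fat by enzymes that attach fatty acids to a glycerol backbone one after another. In the glycerol phosphate route, glycerol-3-phosphate acyltransferase (Gpam) adds the first fatty acid, acylglycerol-phosphate acyltransferases (Agpat1, Agpat2 and Agpat3) add the next and make phosphatidate, lipins (Lpin1 and Lpin2) remove the phosphate to give diacylglycerol, and diacylglycerol acyltransferases (Dgat1 and Dgat2) finish the molecule. A shorter route, well known from the absorbing intestine, starts from monoacylglycerol and is run by monoacylglycerol acyltransferases (Mogat1 and Mogat2). These 10 genes are described here, out of 27670 gene symbols on the array. The genes were chosen by name, with earlier results of these data known. Their probes were found through the gene name printed for each probe or the current symbol of its accession. The 10 genes had 24 of the 41174 non-control probes. Each gene was followed on its brightest probe, and other probes are given for some genes.

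Liver and white adipose tissue (WAT) were taken from male C57BL/6 mice that were 7 months old and had been on a diet with 35% fat for 21 weeks. Mice labelled CD44 knockout, here CD44KO(HFD), were compared with wildtype mice, here WT(HFD), and both genotypes received the same diet. CD44 is a cell surface receptor for hyaluronan and osteopontin, and the knockout, which had been bred onto C57BL/6J, is carried by every cell of the animal. The study asked how loss of CD44 alters fat storage in the liver and in fat, and the arrays held 5 samples for each of the 4 combinations of genotype and tissue. No group on another diet was analysed here, and the labels do not say whether a liver sample and a WAT sample with the same number came from the same mouse.

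RNA was hybridised to one-colour Agilent mouse arrays with probes of 60 bases. Every value below, unless named otherwise, is a log2 signal relative to the array's own 75th percentile, so 0 is the brightness of the probe at that percentile and 1 unit is a doubling. The 75th percentile was 433 to 575 signal units on the liver arrays and 1541 to 2792 on the WAT arrays. The liver arrays had 57.4% to 61.9% of spots well above background, and the WAT arrays 63.2% to 69.5%, except WT(HFD) WAT replicate 1 with 89.5%. That library stood apart from the others, so the WAT comparison of the genotypes is also given without it. The brightest Cd44 probe read 0.48 in WT(HFD) and -3.74 in CD44KO(HFD) liver, and 4.07 and -0.51 in WAT, which matched the labels. It was still well above background on all 5 CD44KO(HFD) WAT arrays. Another Cd44 probe differed by -4.57 in liver and -4.28 in WAT. The remaining one, well above background on 3 WT(HFD) and 2 CD44KO(HFD) liver arrays, differed by 0.20 in liver (adjusted p = 0.888, limma). It was too dim to be tested in WAT. The summed level of 6 hepatocyte markers, in multiples of the 75th percentile, was 1533 to 2322 on the liver arrays and 3.87 to 42.5 on the WAT arrays. The sum of 6 adipocyte markers was 384 to 954 in WAT and 8.06 to 31.4 in liver, where Lep (leptin) was not well above background on any array. All brightest member probes were well above background on all 20 arrays, and none was saturated.

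Mogat2 is the member on which the clearest result rests, and it has 1 probe (NM_177448, chr7:95250993-95251052 of mm7, minus strand). The second part of that probe is shown because no other probe can be set beside it, with the letters of a polyadenylation signal in capitals. The same part of the brightest Mogat1 probe (NM_026713, placed on an unassembled piece of chromosome 1) is shown for comparison.
Mogat2 probe, bases 31 to 60: acatgttacctcAATAAAtgaaaggagtct
Mogat1 probe, bases 31 to 60: tccttcctccaaggcataagaaaggaaggc
Over all 254 pairs of probes of different members, on either strand, the longest run of identical bases was 11, so no probe of one member held a long match to another member's probe.

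The bases before the transcription start were available from RefSeq (GRCm38.p6) for 7 members with 11 start sites between them. Those of Mogat1 (chr1:78510810-78511059, plus strand) and Lpin1 (chr12:16610967-16611216, minus strand), whose mean signals were both lower in CD44KO(HFD) liver, are printed over 250 bases, with the motifs searched in capitals.
Mogat1: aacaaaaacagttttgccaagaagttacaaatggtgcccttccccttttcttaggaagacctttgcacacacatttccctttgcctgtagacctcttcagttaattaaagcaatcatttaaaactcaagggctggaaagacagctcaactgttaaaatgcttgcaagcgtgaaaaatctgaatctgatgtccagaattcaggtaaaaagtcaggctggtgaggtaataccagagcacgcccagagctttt
Lpin1: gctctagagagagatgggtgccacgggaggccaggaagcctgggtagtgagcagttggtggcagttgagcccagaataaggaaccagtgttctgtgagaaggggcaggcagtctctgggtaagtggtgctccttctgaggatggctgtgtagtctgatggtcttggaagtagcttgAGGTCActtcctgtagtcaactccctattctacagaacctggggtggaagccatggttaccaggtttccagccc
The letters searched on both strands were TATAAA (the box that positions the start), CCAAT (bound by nuclear factor Y), CACGTG (an E-box), AGGTCA (a core element bound by many nuclear receptors) and TCACNCCAC (a sterol regulatory element), of which AGGTCA and TCACNCCAC can share bases. Lpin1 held AGGTCA once, 74 to 69 bases before the start, and the Mogat1 window held none of the 5. AGGTCA was present in 14.0% of the 32851 promoters of the same length, CCAAT in 33.9%, TATAAA in 12.4%, CACGTG in 6.02% and TCACNCCAC in 1.05%. Among the 11 member promoters 3 held AGGTCA, 3 held CCAAT, 1 held CACGTG and none held the others.

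In the liver, Mogat2 was the member that differed past the threshold between the genotypes. Its level in WT(HFD) liver was -0.80, -0.54, -0.93, -1.28 and -0.75 in replicates 1 to 5. In CD44KO(HFD) liver it was -2.98, -3.11, -1.64, -2.81 and -2.90. Every CD44KO(HFD) array lay below every WT(HFD) array, and CD44KO(HFD) replicate 3 was the nearest to them. Mogat2 thus fell, with means of -0.86 ± 0.27 (SD, n = 5) for WT(HFD) and -2.69 ± 0.60 (SD, n = 5) for CD44KO(HFD), and the signal was 3.55-fold lower. The log2 difference was -1.83 (95% interval -2.42 to -1.24, adjusted p = 0.0085, limma over 24689 probes), and the exact two-sided permutation test gave p = 0.0079, the smallest that 5 against 5 arrays allow. Within the 3 liver slides the difference was -1.49, -2.05 and -2.05, and it passed the threshold in all 10 fits that left out 1 array (-2.09 to -1.72). With normexp background correction it was smaller, at -1.13 (adjusted p = 0.0329, limma). Across the 10 members, 1 fell and none rose at this threshold. That share is to be read against the 13.6% of all probes tested that passed it in liver, 5.75% lower and 7.85% higher.

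**Figure D1:**
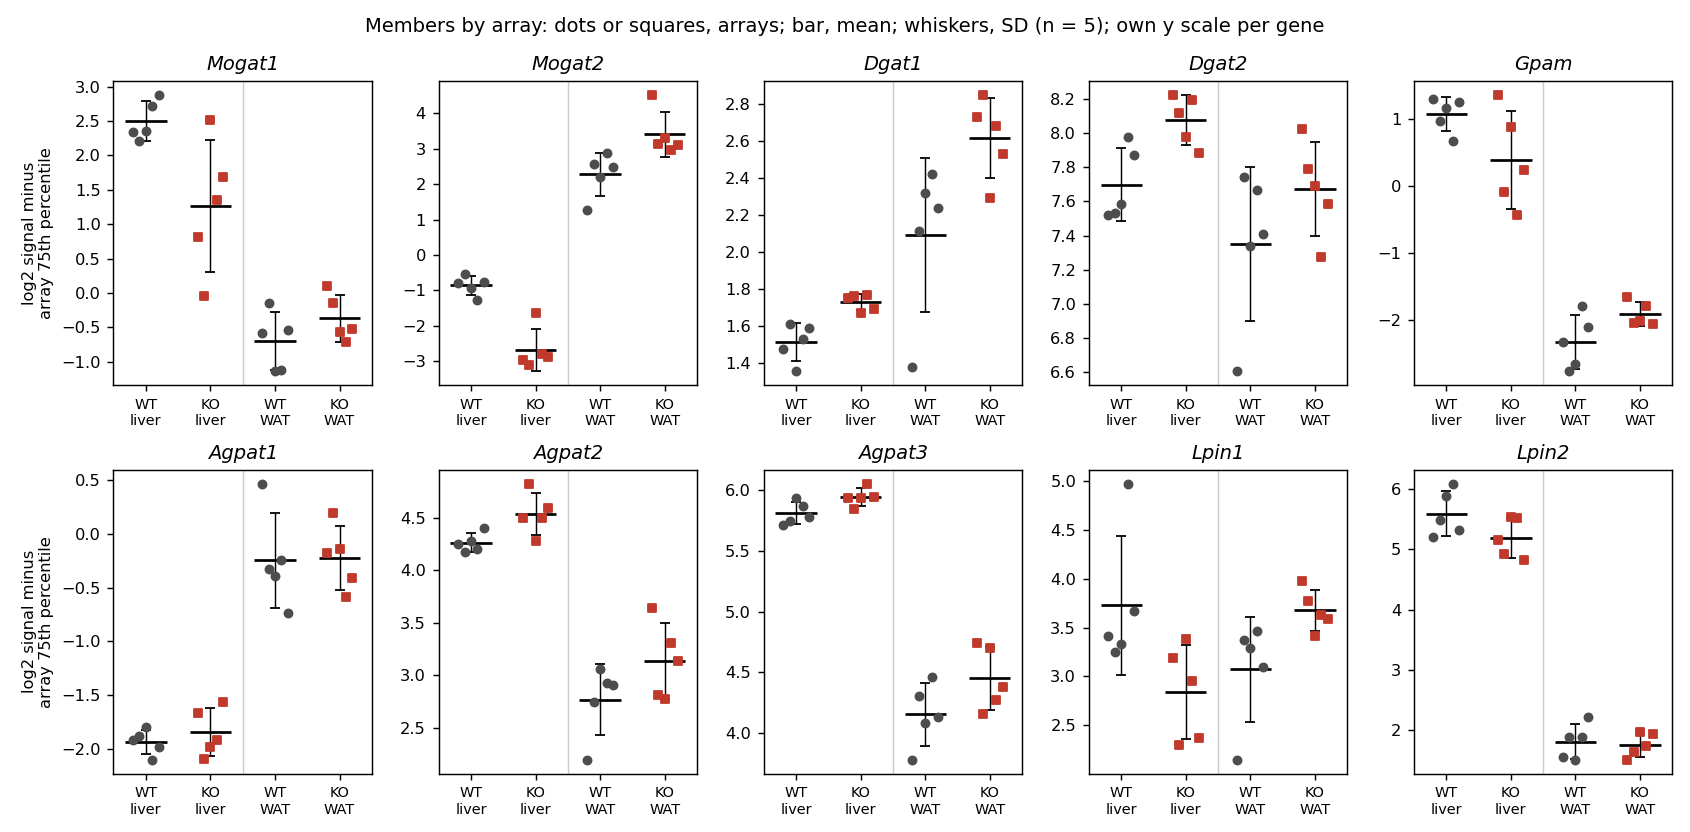
Level of each member on its brightest probe (log2 signal minus the array's 75th percentile; each panel has its own y axis) in 4 groups of 5 arrays. Circles are WT(HFD) and squares CD44KO(HFD) arrays, bars are means and whiskers SD. Mogat2 CD44KO(HFD) liver arrays (-3.11 to -1.64) lie below all WT(HFD) liver arrays (-1.28 to -0.54), and in WAT they lie above them.

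Mogat1 had the same direction in the liver with more spread. Its level was 2.34, 2.20, 2.36, 2.72 and 2.88 on the WT(HFD) arrays and 0.81, -0.05, 2.52, 1.36 and 1.69 on the CD44KO(HFD) arrays. CD44KO(HFD) replicates 1, 2, 4 and 5 were below all WT(HFD) arrays, while replicate 3 sat inside the WT(HFD) range. The means were 2.50 ± 0.29 (SD, n = 5) and 1.27 ± 0.96 (SD, n = 5). The difference of -1.24 (95% interval -2.12 to -0.35) did not pass over all probes (adjusted p = 0.0653, limma), with p = 0.032 in the exact permutation test of this gene alone. Its other probes gave -1.23 and -1.26, so all 3 probes read the same difference. It passed in 1 of 9 other settings, with the slide as a block (adjusted p = 0.0445, against up to 0.128 in the others). It also passed in 1 of 10 fits without 1 array, at -1.55 without CD44KO(HFD) replicate 3 (adjusted p = 0.0136, limma), while without CD44KO(HFD) replicate 2 it was -0.91 and did not pass. CD44KO(HFD) replicate 3 was thus the array nearest to WT(HFD) for both monoacylglycerol acyltransferases. Within slides 1, 2 and 3 the Mogat1 difference was -0.51, -1.81 and -1.55.

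**Figure D2:**
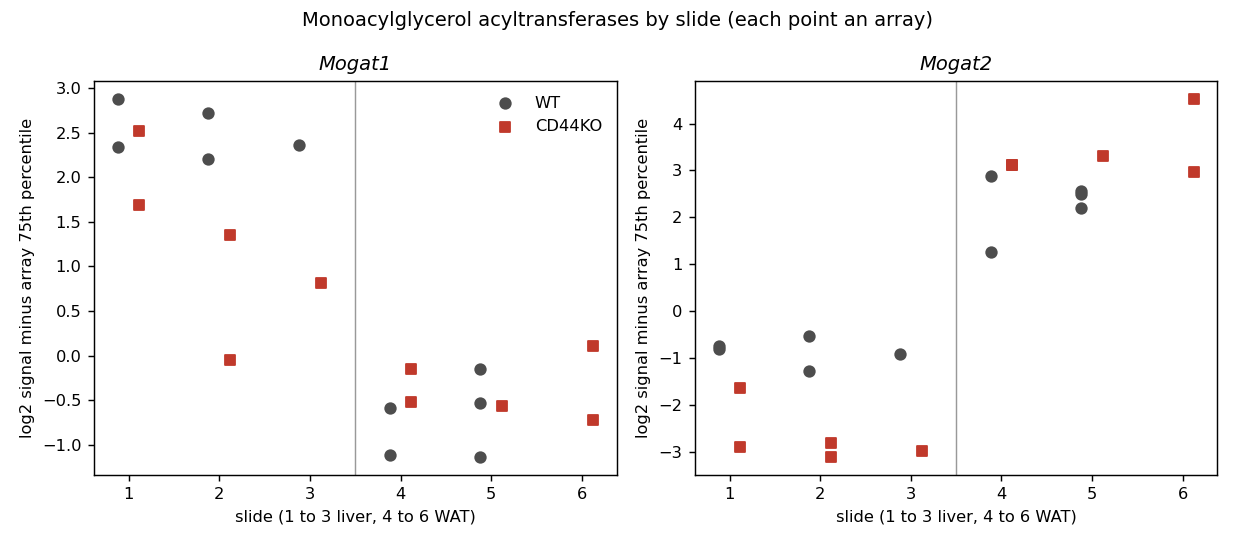
Mogat1 (left) and Mogat2 (right) on each array (y axis, log2 signal minus the array's 75th percentile) by slide (x axis; slides 1 to 3 hold liver and 4 to 6 WAT). Circles are WT(HFD) and squares CD44KO(HFD); slide 6 holds CD44KO(HFD) arrays only. On each liver slide the Mogat2 squares lie below the circles.

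The diacylglycerol acyltransferases catalyse the last step of both routes, and neither passed the threshold on its brightest probe in the liver. Dgat2 read 7.52, 7.53, 7.58, 7.98 and 7.87 on WT(HFD) arrays and 8.22, 8.12, 7.98, 8.19 and 7.88 on CD44KO(HFD) arrays, so the groups overlapped between 7.88 and 7.98. The difference was 0.38 (95% interval 0.12 to 0.64, adjusted p = 0.0535, limma). Its other probes gave 0.37 (adjusted p = 0.0523) and 0.40 (adjusted p = 0.0401, limma), the last on the other side of the threshold. Without WT(HFD) replicate 4 the brightest probe also passed (0.45, adjusted p = 0.0267, limma). Dgat1 (NM_010046) read 1.48, 1.61, 1.36, 1.53 and 1.59 in WT(HFD) and 1.75, 1.76, 1.67, 1.77 and 1.69 in CD44KO(HFD) liver. The groups did not overlap, as for Mogat2 and for 11.7% of all probes tested (4.22% lower, 7.5% higher), and the difference was small (0.21, 95% interval 0.06 to 0.37, adjusted p = 0.0652, limma). Mogat2 and Dgat2 lie beside each other on chromosome 7, with 64489 bases between their nearest probes in mm7, and their liver differences had opposite signs.

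Gpam and Lpin1 were lower on average in CD44KO(HFD) liver, and neither passed over all probes. Gpam (NM_008149), the mitochondrial enzyme of the first step, read 1.30, 0.98, 1.17, 0.68 and 1.25 on WT(HFD) arrays. On CD44KO(HFD) arrays it read 1.36, -0.10, 0.87, -0.44 and 0.23, so its replicate 1 was the highest of all 10 and its replicate 4 the lowest. The difference was -0.69 (95% interval -1.38 to -0.00, adjusted p = 0.155, limma). Lpin1 (AF180471), which also acts in the nucleus as a partner of transcription factors, read 3.41, 3.25, 3.33, 4.98 and 3.67 in WT(HFD) and 3.19, 2.30, 3.38, 2.95 and 2.37 in CD44KO(HFD) liver. The WT(HFD) mean was above each CD44KO(HFD) array, and WT(HFD) replicate 4 lay far above the other arrays. The difference was -0.89 (95% interval -1.65 to -0.12, adjusted p = 0.109, limma, exact permutation p = 0.024), and without WT(HFD) replicate 4 it was -0.57. The other 3 Lpin1 probes (NM_015763) gave -1.01 to -0.99, with adjusted p from 0.0852 to 0.0866. Of these 3, a pair shares 40 of 60 bases and the third adjoins them, so they are not independent readings.

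**Figure D3:**
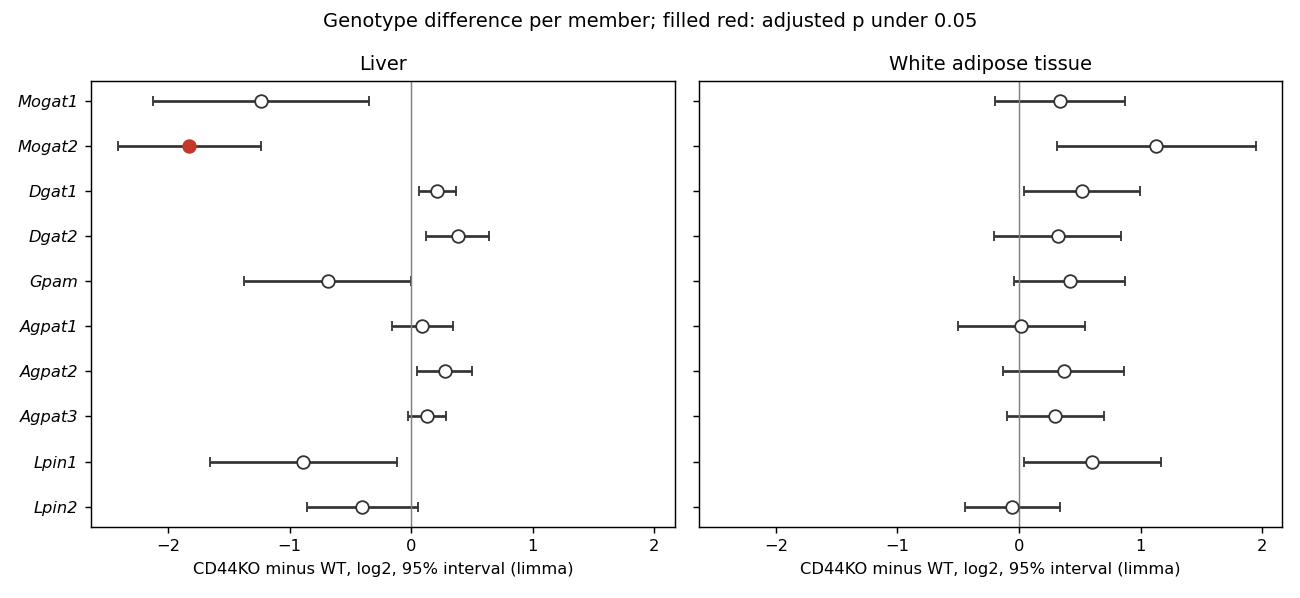
CD44KO(HFD) minus WT(HFD) for each member (log2, x axis) in liver (left) and WAT (right), with 95% intervals from limma (5 arrays a group). Filled red marks an adjusted p under 0.05. Mogat2 in liver (-1.83) is the filled point, and in WAT the points of 9 members are above 0.

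The probes of Lpin2, a lipin of the liver, did not give 1 answer. The brightest (AK012110) read 5.60 ± 0.38 (SD, n = 5) in WT(HFD) and 5.19 ± 0.33 (SD, n = 5) in CD44KO(HFD) liver, a difference of -0.40 (adjusted p = 0.206, limma), and the probe of NM_022882 gave -0.44. A probe of the transcript AK085538 rose by 1.12 (95% interval 0.74 to 1.502, adjusted p = 0.00966, limma), without overlap between the groups, and one of AK033959 read 0.66 higher (adjusted p = 0.127, limma). For 11.7% of all probes tested in liver the groups did not overlap (4.22% lower, 7.5% higher). On chromosome 17 of mm7 the AK085538 probe ends 42671 bases and the AK033959 probe 34376 bases before the brightest one, while the NM_022882 probe ends 2808 bases before it. Their second parts are printed to show that the probes read different sequence, in the order of the chromosome and all on the plus strand.
AK085538, chr17:69486290-69486349, bases 31 to 60: agggttacaaagtccacacagtaggaaaag
AK033959, chr17:69494585-69494644, bases 31 to 60: aagaaaccaactttataggtactgcttttg
NM_022882, chr17:69525846-69526212, bases 31 to 60: aatcatcgtatcacaggctgagtgagcttg
AK012110, chr17:69529021-69529080, bases 31 to 60: aatcattgtaaacatcagtgcagtaccttc
The probes differed in brightness, with WT(HFD) liver means of 5.60 (AK012110), 1.49 (NM_022882), -1.56 (AK085538) and -3.62 (AK033959). The brighter pair read lower and the dimmer pair higher in CD44KO(HFD). The mean over the 4 probes, which counts each alike, was 0.23 higher in CD44KO(HFD). Since the probes disagreed, no direction is given for Lpin2 in the liver. Of all 24 member probes, 1 was called lower and 2 higher in liver, beside 5.75% lower and 7.85% higher among all probes tested.

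**Figure D4:**
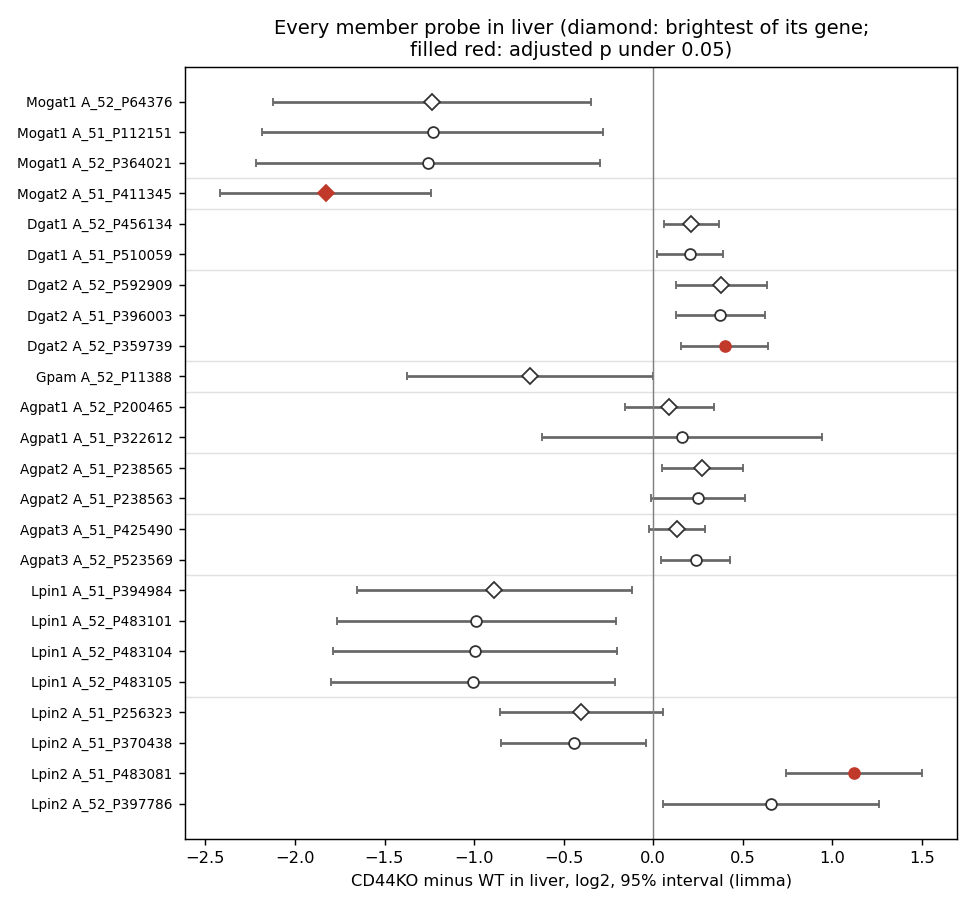
Liver difference between CD44KO(HFD) and WT(HFD) (log2, x axis, 95% intervals from limma, 5 arrays a group) for all 24 member probes, named by gene and probe on the y axis. Diamonds are the brightest probe of a gene, and filled red marks an adjusted p under 0.05. The probes of Mogat1 agree (-1.26 to -1.23), while those of Lpin2 run from -0.44 to 1.12.

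None of the acylglycerol-phosphate acyltransferases passed in the liver. Agpat2 (NM_026212), whose loss in people causes generalised lipodystrophy, was 4.17 to 4.40 in WT(HFD) and 4.27 to 4.83 in CD44KO(HFD) liver, a difference of 0.27 (adjusted p = 0.0937, limma). Without CD44KO(HFD) replicate 3 it passed (0.34, adjusted p = 0.0329, limma). The second of its 2 probes, which shares 40 bases with the brightest, gave 0.25 (adjusted p = 0.17, limma). Agpat3 (NM_053014) differed by 0.13 (adjusted p = 0.22, limma) and Agpat1 (NM_018862) by 0.09 (adjusted p = 0.619, limma). Their other probes gave 0.24 (adjusted p = 0.0904) and 0.16 (adjusted p = 0.788, limma). The 95% interval for the brightest Agpat1 probe ran from -0.16 to 0.34. Over the 10 members, 5 were lower and 5 higher in CD44KO(HFD) liver, with a median difference of -0.16 beside 0.08 for all probes tested.

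Markers of other cells moved between the same liver groups. Of 5 fibroblast markers 3 fell, and their summed level was 88.1 to 126 in WT(HFD) and 59.4 to 84.0 in CD44KO(HFD) liver. Of 5 T cell markers 3 fell (sums of 1.23 to 2.28 and 1.03 to 1.58), and of 6 hepatocyte markers 1 rose (1533 to 2085 and 2014 to 2322). All 5 T cell markers were well above background on the WT(HFD) liver arrays, but 4 on the CD44KO(HFD) ones. The other was thus tested through the WT(HFD) group alone. Among all probes tested in liver, 5.75% fell and 7.85% rose past the threshold. Of 3 exocrine pancreas markers tested 1, Amy2, rose, and the list of 5 summed to 2.997 to 5.02 in WT(HFD) and 5.68 to 8.59 in CD44KO(HFD) liver. None of the 5 macrophage markers tested passed (sums over 6 of 43.9 to 100.3 and 38.9 to 117), nor did either of the 2 adipocyte markers tested. The adipocyte list of 6 summed to 17.5 to 31.4 in WT(HFD) and 8.06 to 25.0 in CD44KO(HFD) liver. Fewer cells of a type and less RNA per cell cannot be told apart in such bulk samples, and the part of these markers in the liver differences was not tested.

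In WAT no member passed the threshold (limma over 27654 probes), in a comparison where 0.0398% of all probes did (0.0289% lower, 0.0108% higher). At an unadjusted p under 0.05 there were 3 members, Mogat2, Dgat1 and Lpin1, all higher, beside 14.9% of all probes at that p. Mogat2 read 1.27, 2.56, 2.20, 2.88 and 2.49 in WT(HFD) and 4.52, 3.12, 3.32, 2.96 and 3.12 in CD44KO(HFD) WAT. Every CD44KO(HFD) array was above every WT(HFD) array, as for 6.18% of all probes tested (4.1% higher, 2.07% lower), although the closest values were 2.88 and 2.96. The means were 2.28 ± 0.61 (SD, n = 5) and 3.41 ± 0.64 (SD, n = 5). The difference was 1.13 (95% interval 0.31 to 1.95, adjusted p = 0.23, limma), with p = 0.0079 in the exact permutation test of Mogat2 alone. A fit over all 20 arrays, which pools the spread of both tissues, gave an adjusted p of 0.04996, at the threshold. Without WT(HFD) replicate 1 the difference was 0.88 (adjusted p = 0.238, limma), and within slides 4 and 5 it was 1.05 and 0.90. The third WAT slide held 2 CD44KO(HFD) arrays and no WT(HFD) array.

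Lpin1 read 2.14, 3.37, 3.29, 3.46 and 3.096 in WT(HFD) WAT and 3.97, 3.77, 3.41, 3.63 and 3.58 in CD44KO(HFD) WAT. One WT(HFD) array, replicate 1, was well below the rest, and replicate 4 reached the CD44KO(HFD) range. The difference was 0.60 (95% interval 0.04 to 1.16, adjusted p = 0.313, limma) and 0.37 without WT(HFD) replicate 1. Dgat1 read 1.38, 2.12, 2.32, 2.42 and 2.24 in WT(HFD) and 2.73, 2.85, 2.29, 2.68 and 2.53 in CD44KO(HFD) WAT. Its difference was 0.52 (95% interval 0.04 to 0.997, adjusted p = 0.305, limma), and 0.34 without WT(HFD) replicate 1. That replicate had the lowest WT(HFD) level of 6 members, among them Mogat2, Lpin1 and both diacylglycerol acyltransferases.

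The remaining members in WAT differed by 0.42 (Gpam), 0.37 (Agpat2), 0.33 (Mogat1), 0.32 (Dgat2), 0.30 (Agpat3), 0.02 (Agpat1) and -0.06 (Lpin2), with adjusted p from 0.368 to 0.972 (limma). Without WT(HFD) replicate 1 these were 0.42 (Gpam), 0.22 (Agpat2), 0.36 (Mogat1), 0.13 (Dgat2), 0.21 (Agpat3), 0.20 (Agpat1) and -0.12 (Lpin2). On another probe each, Agpat1 read -0.36 (adjusted p = 0.544, limma) and Lpin2 (NM_022882) -1.23 (adjusted p = 0.343, limma). That Lpin2 probe ran from -3.92 to -0.70 in WT(HFD) and from -4.80 to -3.97 in CD44KO(HFD) WAT. Its groups did not overlap, as for 6.18% of all probes tested (4.1% higher, 2.07% lower). On the brightest probes 9 of 10 members were higher and 1 lower, with a median of 0.35 beside -0.06 for all probes. Without WT(HFD) replicate 1 the counts were the same and the medians were 0.28 and 0.04. With the mean over a gene's probes 8 members were higher and 2 lower. When arrays were scaled on their median in place of the 75th percentile, the median of all WAT probes itself moved to 0.42 and that of the members to 0.83. Of 4 endothelial markers none passed, though their sums were 6.09 to 12.5 in WT(HFD) and 13.6 to 24.1 in CD44KO(HFD) WAT. The 6 adipocyte markers summed to 384 to 627 and 526 to 954, the 4 mesothelial ones to 2.13 to 10.3 and 0.98 to 3.16, and the 5 T cell ones to 0.59 to 3.60 and 0.35 to 0.67, with none passing. The 6 macrophage markers summed to 249 to 362 and 265 to 334, and the 4 B cell ones to 0.76 to 7.19 and 0.65 to 1.47, with none passing. WT(HFD) replicates 1 and 5 had the highest T cell sums (3.31 and 3.60) and B cell sums (2.04 and 7.19). The 6 hepatocyte markers summed to 3.87 to 30.05 in WT(HFD) and 9.86 to 42.5 in CD44KO(HFD) WAT, with a median difference of 0.91 and none passing. The 5 epididymis markers summed to 1.36 on WT(HFD) replicate 1, where all 5 were well above background, and to 0.037 to 0.063 on the other WT(HFD) arrays. On the CD44KO(HFD) WAT arrays they summed to 0.035 to 0.22, the highest being replicates 1 (0.22) and 2 (0.18). Mogat2 read 4.52 and 3.12 on those arrays, and 1.27, its lowest WAT value, on WT(HFD) replicate 1. Neither of the 2 epididymis markers tested passed. The part of these markers in the WAT differences was not tested.

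The genotype difference of Mogat2 was not the same in both tissues, being negative in liver and positive in WAT. The liver difference minus the WAT difference was -2.96 (95% interval -3.95 to -1.96, adjusted p = 0.0084, limma over 28989 probes). Of all probes tested, 1.15% passed this comparison, 0.873% with a negative and 0.279% with a positive value. Without WT(HFD) WAT replicate 1 the Mogat2 value was -2.71 (adjusted p = 0.0077, limma). It no longer passed when arrays were scaled on their median (-3.43, adjusted p = 0.0709) or when the replicate number within a tissue entered as a block (adjusted p = 0.126). That block joined WT(HFD) and CD44KO(HFD) arrays of the same number, and did not pair liver with WAT. No other member passed. The values were -1.57 for Mogat1 (adjusted p = 0.118), -1.49 for Lpin1 (adjusted p = 0.106) and -1.10 for Gpam (adjusted p = 0.163, limma), and these 3 were lower on average in liver and higher in WAT. Without CD44KO(HFD) liver replicate 3 Mogat1 passed (-1.88, adjusted p = 0.0264, limma). For the other 6 members the value ran from -0.35 to 0.07 and the adjusted p from 0.522 to 0.925.

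Most members differed between liver and WAT within a genotype. All liver arrays were read on 1 scanner on 1 day and all WAT arrays on another scanner and day, so tissue, slide, scanner and day cannot be told apart here. In WT(HFD) mice 5 members were higher and 3 lower in liver, where 68.3% of all probes passed (34.7% higher, 33.5% lower). The groups did not overlap for 7 members and for 57.8% of all probes (27.7% higher, 30% lower). In CD44KO(HFD) mice 6 were higher and 4 lower, where 77% passed (43.6% higher, 33.4% lower), and 8 did not overlap, as for 66.2% of all probes (37.7% higher, 28.5% lower). Lpin2 had the largest WT(HFD) difference among the members, at 5.60 in liver and 1.81 in WAT (3.79, adjusted p = 1.75e-07, limma). Its NM_022882 probe was also higher in liver, at 4.599 (adjusted p = 4.65e-05, limma), while the other 2 were well above background on 1 WT(HFD) WAT array and on no CD44KO(HFD) WAT array and are not used for this. Gpam stood at 1.07 in WT(HFD) liver and -2.33 in WT(HFD) WAT (3.41, adjusted p = 3.18e-07, limma). Mogat1 stood at 2.50 and -0.71 (3.21, adjusted p = 7.33e-07, limma).

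The monoacylglycerol acyltransferases had opposite tissue preferences. Mogat2 was lower in liver, with a difference of -3.14 in WT(HFD) and -6.10 in CD44KO(HFD) mice (adjusted p = 4.99e-06 and 2.82e-08, limma). Its 4 group means ran from -2.69 (CD44KO(HFD) liver) through -0.86 (WT(HFD) liver) and 2.28 (WT(HFD) WAT) to 3.41 (CD44KO(HFD) WAT), and no neighbouring groups overlapped, although the WAT groups did not differ past the threshold. Those of Mogat1 ran from -0.71 (WT(HFD) WAT) through -0.37 (CD44KO(HFD) WAT) and 1.27 (CD44KO(HFD) liver) to 2.50 (WT(HFD) liver). The Mogat1 groups overlapped between genotypes in each tissue, and the lowest CD44KO(HFD) liver array, at -0.05, lay within the CD44KO(HFD) WAT range of -0.72 to 0.10.

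**Figure D5:**
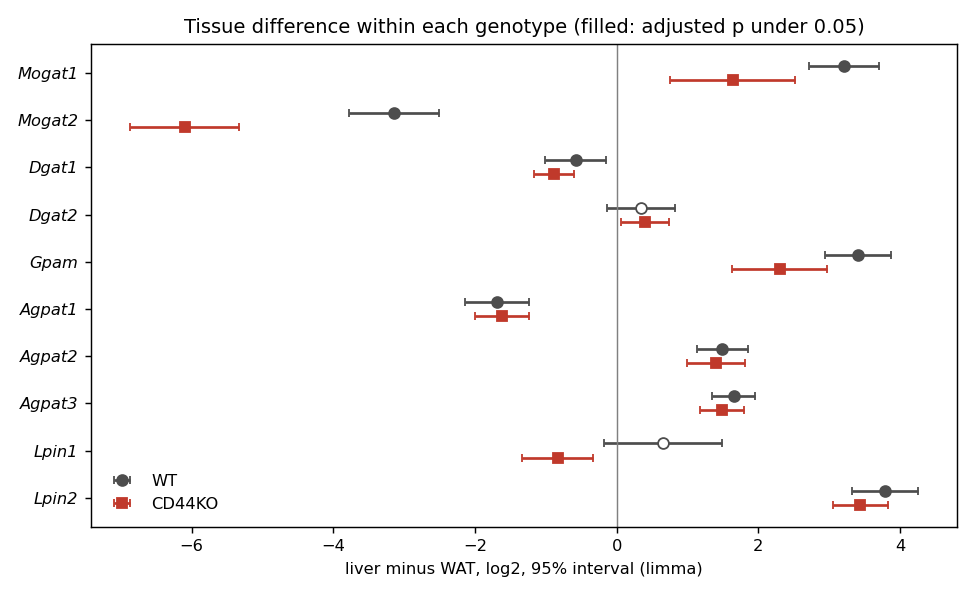
Liver minus WAT for each member (log2, x axis) within WT(HFD) (circles) and CD44KO(HFD) (squares), with 95% intervals from limma (5 arrays a group). Filled symbols have an adjusted p under 0.05. Mogat2 is farther to the left in CD44KO(HFD) (-6.10) than in WT(HFD) (-3.14), and the Lpin1 symbols fall on either side of 0.

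Agpat2 and Agpat3 were higher in liver in both genotypes, Agpat2 by 1.49 and 1.40 and Agpat3 by 1.65 and 1.49. Dgat1 was lower in liver, at -0.58 in WT(HFD) (adjusted p = 0.0207, limma) and -0.89 in CD44KO(HFD) mice, and in WT(HFD) the call was lost with median scaling (-0.48, adjusted p = 0.474). Lpin1 was 0.65 higher in WT(HFD) liver than WAT without passing (adjusted p = 0.145, limma), and 0.34 higher without WT(HFD) liver replicate 4. In CD44KO(HFD) mice it was lower in liver, at -0.83 (adjusted p = 0.00542, limma), without overlap. Agpat1 was lower in liver on its brightest probe (-1.69 and -1.62), but its other probe read 0.10 and 0.62. Dgat2 was 0.41 higher in CD44KO(HFD) liver on its brightest probe (adjusted p = 0.0321, limma), while its other probes gave -0.36 and 0.05 and quantile normalization gave -1.44, so it is given no tissue direction. Without WT(HFD) WAT replicate 1 the WT(HFD) tissue comparison gave the same 8 calls, with Mogat2 at -3.39, Dgat1 at -0.76, Lpin1 at 0.42 and Dgat2 at 0.16.

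Other enzymes and regulators of triglyceride synthesis were followed from a list of 44 genes, 43 of which had a probe. In liver 3 of 40 tested (7.5%) passed, fewer than the 13.6% of all probes. Acsl1, an acyl-CoA synthetase that activates fatty acids, was 6.57 to 7.13 in WT(HFD) and 7.14 to 7.78 in CD44KO(HFD) liver, and rose by 0.59 (adjusted p = 0.0284, limma). Srebf1, a transcription factor that drives fatty acid synthesis genes, was 6.74 to 7.44 and 7.16 to 7.82, and rose by 0.55 (adjusted p = 0.0448, limma). Aqp7, a glycerol channel of adipocytes, was -4.89 to -2.31 in WT(HFD) and -5.98 to -4.22 in CD44KO(HFD) liver, and fell by 1.89 (adjusted p = 0.0346, limma). It was tested through the WT(HFD) group alone, since its signal exceeded background clearly on 4 WT(HFD) liver arrays and on 1 CD44KO(HFD) liver array, so the size of its difference is not well measured. The remaining 37 genes tested in liver, among them the other glycerol-phosphate acyltransferases (Gpat2, Gpat3 and Gpat4), Lpin3 and the regulators Pparg, Ppara and Mlxipl, did not pass. In WAT none of 39 passed, with 11 at an unadjusted p under 0.05 (limma), a cut that 14.9% of all probes met.

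The genes most like Mogat1 and Mogat2 over the 10 liver arrays were named as a description, with Pearson's r over 14150 symbols. Part of each r is the difference between genotypes that the pair shares, so r within genotypes is given too. For Mogat2 they were Sema3b (0.99, and 0.93 within genotypes), Atp9a (0.98 and 0.98), Tmem237 (0.98 and 0.97), Tspo (0.98 and 0.89) and Endod1 (0.98 and 0.87). For Mogat1 they included Lgals1 (0.97 and 0.96), Stap1 (0.97 and 0.94), Wdr93 (0.96 and 0.93) and Cidea (0.96 and 0.93). The liver difference was -2.27 for Sema3b (adjusted p = 0.0103), -1.23 for Lgals1 (galectin-1, adjusted p = 0.0268) and -2.15 for Cidea, a lipid droplet protein (adjusted p = 0.0823, limma). Cidea did not pass, and all are given as a description because these genes were picked for their likeness.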

How the data were processed

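The members, gene lists and tests were chosen with earlier results of these data known. Per the labels, total RNA of liver and WAT was hybridised to one-colour Agilent arrays and read with Feature Extraction (9.5 in the submitters' processing notes, 9.5.3.1 in the file headers; build mm7). The deposited files hold processed signal intensity per spot (detrended, not background-subtracted), and the series table holds the same intensity values. From these, spots of a probe were averaged and log2 intensity minus the array's 75th percentile was tested with limma 3.58.1 (R 4.3.3) within each tissue (10 arrays), for the interaction over 20 arrays, and between tissues within a genotype. A probe was tested if 3 or more of the 5 arrays in 1 group flagged it well above background, with Benjamini-Hochberg adjustment at 0.05. Single genes also had an exact two-sided permutation test over 252 relabellings. The methods give n = 5 per group. The limma p-values weigh a difference of means against the spread between these samples, moderated over all probes tested. The fits were tested on simulated data with independent normal noise for each probe. These held no slide effect and no outlying array, so they do not cover such features of the real arrays. Of 41174 probes, 22951 were named by RefSeq accession. All members are reported, as are Cd44, the listed pathway genes past the threshold (at most 8 a tissue) and the 5 genes most like Mogat1 and Mogat2, of which 1 is not reported here. Alternatives were normexp background correction with offset 50, quantile or median scaling, other filters, slide or replicate blocks, 1 fit over 20 arrays, the mean over a gene's probes, and leaving out each array. The number of arrays limits the precision. Figures used Python 3.11.15 and matplotlib 3.10.9.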

Additional observations from a re-analysis of the deposited data

Results flagged for a closer look

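In 4 of 40 gene and group combinations 1 array lay far from the other 4 by Dixon's criterion, which chance gives in about 1 of 20. Lpin1 in WT(HFD) liver replicate 4 was 4.98, and the next array was 3.67. Lpin1 in WT(HFD) WAT replicate 1 was 2.14, and the next was 3.096. Mogat2 in CD44KO(HFD) liver replicate 3 was -1.64, with the next at -2.81. Mogat2 in CD44KO(HFD) WAT replicate 1 was 4.52, with the next at 3.32. The genotype difference of Mogat2 was itself different between liver and WAT, by -2.96 on the log2 scale (adjusted p = 0.0084, limma).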

How the results depend on the processing

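Mogat2 in liver kept its direction and its call in all 9 other settings (-1.88 to -1.13, adjusted p 0.006 to 0.0329, limma) and in 10 fits without 1 array. Among these settings, the mean over a gene's probes and the other filters could not change its difference, since Mogat2 has 1 probe. The number of members called in liver was 1. It was 2 with a filter on all 5 arrays, with the slide as a block and with the mean over a gene's probes, and 1 to 3 when 1 array was left out (2 without WT(HFD) replicate 4, 3 without CD44KO(HFD) replicate 3). In WAT 0 were called, 1 with all 20 arrays in 1 fit, and 0 to 0 when 1 array was left out. For the difference between tissues 1 was called, 0 with median scaling or the replicate block, and 1 to 2 without 1 array. Median scaling moved the median of all probes to 0.42 in WAT and -0.34 for the difference between tissues. For liver against WAT 8 to 8 were called in WT(HFD) and 9 to 10 in CD44KO(HFD) mice without 1 array, and the slide block could not be fitted there. The replicate numbers gave no clear pairing. Deviations of same-numbered WT(HFD) and CD44KO(HFD) arrays correlated at -0.04 to 0.42 in liver and -0.21 to 0.09 in WAT. For differently numbered arrays these ranges were -0.50 to 0.53 and -0.14 to 0.15. Between liver and WAT of the same number the range was -0.19 to 0.14 in WT(HFD) and -0.06 to 0.12 in CD44KO(HFD) mice. With the replicate number within a tissue as a block the counts of all probes called were 1329 in liver, 3 in WAT and 0 for the difference between tissues. Mogat2 in the last was -2.96 (adjusted p = 0.126).

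The counts of all probes called were 3358 in liver, 11 in WAT and 334 for the difference between tissues. They were 641 in liver and 35 in WAT with normexp, 1027, 3 and 77 without a filter on dim probes, 723 and 1817 for liver and WAT with all 20 arrays in 1 fit, and 19 in WAT and 20 for the difference between tissues with median scaling. With the slide as a block they were 4 in WAT and 621 for the difference between tissues. Leaving out 1 array gave 924 to 4695, 3 to 37 (the highest without WT(HFD) WAT replicate 1) and 84 to 582.

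Small differences changed sign, and only Dgat2 under quantile normalization did so past a threshold, the cause not being tested: -1.40 in WT(HFD) (adjusted p = 1.27e-05) and -1.44 in CD44KO(HFD) mice (adjusted p = 2.56e-07) for liver against WAT, where Lpin1 in WT(HFD) was -0.016. With the mean over a gene's probes, Lpin2 was 0.23 in liver, Agpat1 was -0.17 in WAT, and the difference between tissues was 1.06 for Lpin2 and -0.0081 for Dgat2. In WAT, Agpat1 was -0.030 with quantile normalization, and Lpin2 was 0.43 with median scaling and 0.077 with the slide block. For the difference between tissues, Dgat2 was -0.0097 with normexp, -0.036 with quantile normalization, -0.41 with median scaling and -0.017 with the slide block, Agpat1 was -0.40 with median scaling, and Agpat2 was 0.095 with the slide block. Leaving out 1 array moved Agpat1 in WAT between -0.10 and 0.20 and Lpin2 between -0.13 and 0.048, and the difference between tissues of Agpat1 between -0.11 and 0.19, of Agpat2 between -0.18 and 0.052 and of Dgat2 between -0.039 and 0.25.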

Other observations

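In WAT, 7 of 39 pathway genes tested (17.9%) had no overlap between the genotypes, beside 6.18% of all probes, and none passed the adjusted threshold. They are named after their values were seen. Pck1, which makes the glycerol backbone from pyruvate in fat, was 3.66 to 4.92 in WT(HFD) and 5.07 to 5.50 in CD44KO(HFD) WAT. Fitm2, which packages triglyceride into droplets, was 0.95 to 1.94 and 2.18 to 3.09. Mlxipl, the carbohydrate response factor ChREBP, was 0.06 to 1.39 and 1.55 to 2.66. Pparg, the adipocyte regulator, was 2.96 to 3.70 and 3.80 to 4.45, Aqp7 0.66 to 1.43 and 1.54 to 2.18, and Plpp1 2.03 to 2.64 and 2.68 to 2.91. Agpat4 ran the other way, at 3.43 to 3.61 and 3.08 to 3.30. WT(HFD) replicate 1 had the lowest of the 5 WT(HFD) values for the 6 that were higher in CD44KO(HFD). Without it their differences ranged from 0.30 to 0.82, against 0.39 to 0.98 with it.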
